A study of Rattus norvegicus with 6 samples.

Results

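The genes described here belong to the intercalated cell, the acid-base cell of the connecting tubule and collecting duct. The set was defined by name and holds 9 genes: the cell-restricted subunits of the vacuolar proton pump (Atp6v1b1, Atp6v0d2, Atp6v0a4 and Atp6v1g3), the anion exchangers Slc4a1, Slc4a9 and Slc26a4 (pendrin), the transcription factor gene Foxi1 and Tmem213. A gene was represented by the brightest of its array probes, matched through the RefSeq accession that the scanner files give for each probe. Of the 9 genes, 7 had at least 1 such probe, 14 probes in all, and these 7 were among 31193 tested transcripts. Atp6v0a4 and Tmem213 matched no probe and were not analysed here.

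The RNA was that of renal cortex from male Sprague-Dawley rats, which were 5 weeks old at purchase. The treated group, 3 rats, received carbon tetrachloride at 100 mg/kg/day for 4 weeks, and the control group, 3 rats, received corn oil for 4 weeks. Carbon tetrachloride is a chlorinated solvent best known as a liver toxicant. Benzyl acetate stands in the design text in place of this solvent, and the sample labels and the title, which name carbon tetrachloride, were followed. Each rat gave 1 single-colour array, so 3 arrays a group limit the precision of every value.

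An intercalated cell moves acid or base across the tubule wall with a vacuolar proton pump, a rotary machine made of a cytosolic sector that splits ATP and a membrane sector that carries protons. Acid-secreting (type A) cells carry the pump on the urinary side and the chloride/bicarbonate exchanger encoded by Slc4a1 on the blood side. Base-secreting (type B) cells carry pendrin on the urinary side and the exchanger encoded by Slc4a9 on the blood side. In mice Foxi1 is needed for these cells to form and to express pump subunits and exchangers.

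Of the 7 measured genes, 0 changed with carbon tetrachloride at an adjusted p of 0.05 in limma, where 0.00321% of all tested transcripts did, and 0 of 7 had an unadjusted p under 0.05, where 6.3% of all did. The fitted log2 fold changes (carbon tetrachloride minus corn oil) were small. They ran from -0.25 for Atp6v1g3 to 0.13 for Slc4a9, with 5 of 7 below 0 and 2 above, where 47.7% of all transcripts were below and 52.3% above, and their median was -0.11, beside a median of 0.0077 over all tested transcripts. That median is the value of the brightest Foxi1 probe, and Foxi1, whose 2 other probes lay above 0, is 1 of the 5. The split changed under some alternatives, given at the end. All 7 lay within the 5th to 95th percentile of all transcripts, -0.36 to 0.32. All 7 probes were well above background on each of the 6 arrays. In RNA of whole cortex, fewer intercalated cells and less RNA per cell cannot be told apart.

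Atp6v1b1 encodes the kidney and inner ear form of the B subunit of the cytosolic sector, and in humans its loss causes distal renal tubular acidosis with deafness. Its log2 signal relative to the array's 75th percentile was 3.85, 3.48 and 3.50 in carbon tetrachloride rats and 3.78, 3.78 and 3.76 in corn oil rats. The corn oil rats lay close together, and the treated rats lay on both sides of them, with replicate 1 above and replicates 2 and 3 below. The log2 fold change was -0.17 ± 0.12 (SE, n = 3 per group), a fold of 0.891 with a 95% interval of 0.732 to 1.08 and a limma adjusted p of 0.835. On the gene's dimmer second probe the treated values were -0.30, -0.66 and -0.46 and the corn oil values -0.50, -0.27 and -0.32. There treated replicates 1 and 3 lay within the corn oil range and replicate 2 below it, and the log2 fold change was -0.11.

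Promoter sequence from RefSeq (build GRCr8) was matched for 7 of the 9 genes, though not for Atp6v0d2 and Slc4a1, and searched for forkhead motif letters, since Foxi1 is a forkhead factor. The strict form TGTTTAC, on either strand, was found in 1 of these 7 promoters, that of Atp6v1b1, and in 3.78% of all 33469 promoters of the same 300 bases. The looser form TNTTTAC, which contains the strict one, was found in 3 of 7, those of Atp6v1b1, Slc4a9 and Tmem213, and in 13.3% of all promoters. Both forms were chosen after the promoters had been read, and a match is a description of letters, not of binding. The promoters of the 2 measured genes with a match are shown 5′ to 3′ along the gene, from 250 bases before the start to 50 bases after it, with the match in capitals. That of Atp6v1b1 lies at chr4:117781194-117781493, plus strand, and its match begins 93 bases before the start. That of Slc4a9 lies at chr18:28402543-28402842, plus strand, and its match begins 223 bases before the start.
Atp6v1b1: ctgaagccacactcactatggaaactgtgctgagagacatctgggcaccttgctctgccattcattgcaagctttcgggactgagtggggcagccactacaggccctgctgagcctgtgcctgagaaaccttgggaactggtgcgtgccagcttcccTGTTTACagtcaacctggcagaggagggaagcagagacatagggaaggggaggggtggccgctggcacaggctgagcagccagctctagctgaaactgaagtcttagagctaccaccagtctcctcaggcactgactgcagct
Slc4a9: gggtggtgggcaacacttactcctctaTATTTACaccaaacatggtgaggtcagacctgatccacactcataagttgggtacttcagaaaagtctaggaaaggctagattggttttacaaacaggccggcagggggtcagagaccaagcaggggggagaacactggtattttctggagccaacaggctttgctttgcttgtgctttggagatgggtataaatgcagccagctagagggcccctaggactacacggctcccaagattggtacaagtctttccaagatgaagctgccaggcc

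Atp6v1g3, which encodes the kidney-restricted form of the G subunit of the pump's stalk, had the largest fitted difference of the 7 genes. Its log2 signal was 5.96, 6.14 and 5.79 in carbon tetrachloride rats and 6.13, 6.34 and 6.16 in corn oil rats. Of the treated rats, 2 lay below every corn oil rat, and replicate 2 lay within the corn oil range. Its fitted change was -0.25 ± 0.11 (log2 fold change ± SE, n = 3 per group), a fold of 0.842 with a 95% interval of 0.693 to 1.02 and a limma adjusted p of 0.798. The second probe gave -0.28, with treated values of 2.89, 3.18 and 2.76 and corn oil values of 3.16, 3.47 and 3.06, so both probes placed treated replicate 2 highest among the treated rats.

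Atp6v0d2 encodes a cell-restricted form of the d subunit, which joins the membrane sector to the central stalk, and it is also known from osteoclasts. Its log2 signal was 2.48, 2.48 and 2.44 in carbon tetrachloride rats and 2.52, 2.57 and 2.57 in corn oil rats, so every treated rat lay below every corn oil rat. It was the only 1 of the 7 genes whose groups did not overlap, where 12.8% of all transcripts did not overlap and 5.27% did so with lower treated values. The difference was the second smallest of the 7 genes in size, at -0.086 ± 0.060 (log2 fold change ± SE, n = 3 per group), a fold of 0.942 with a 95% interval of 0.851 to 1.04 and a limma adjusted p of 0.835. The within-group SD was 0.025, smaller than that of all but 0.834% of transcripts, and limma draws so small a spread towards that of the other transcripts.

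**Figure D1:**
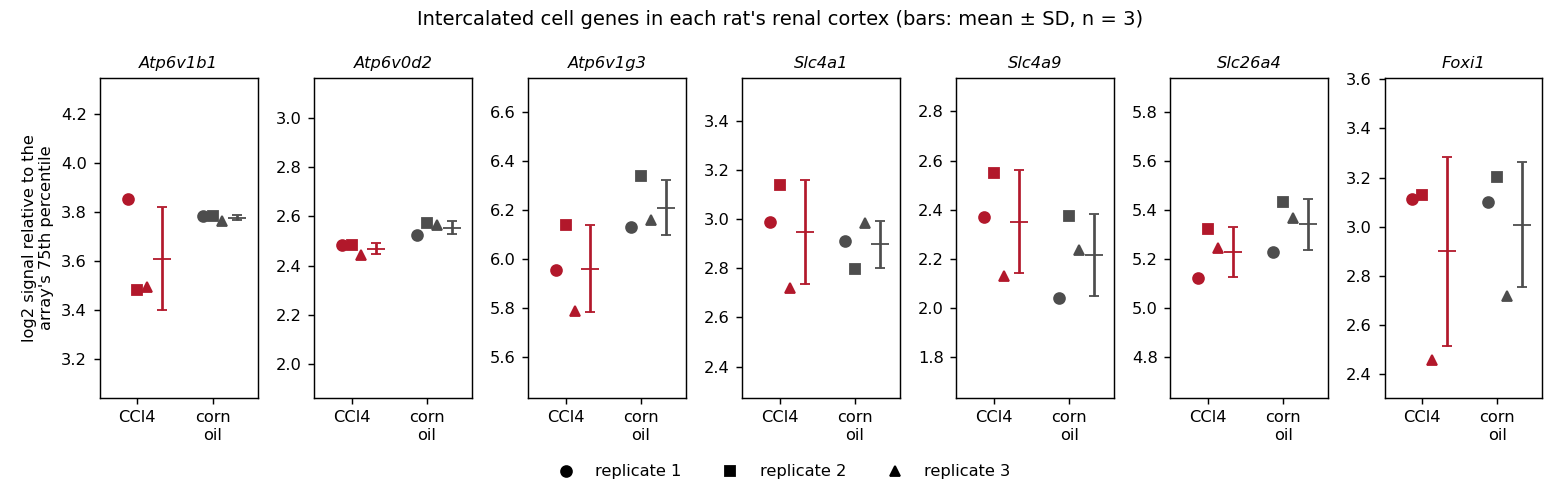
Log2 signal relative to each array's 75th percentile for the 7 measured intercalated cell genes, with carbon tetrachloride (CCl4) on the left and corn oil on the right of each panel. Symbols mark the replicate and bars give mean ± SD (n = 3), each panel spans the same log2 range, and Atp6v0d2 alone has groups that do not overlap.

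The exchangers of the 2 cell types gave no shared direction. Slc4a1, the blood-side exchanger of type A cells and also the band 3 protein of red cells, had a log2 signal of 2.99, 3.14 and 2.72 in carbon tetrachloride rats and 2.91, 2.80 and 2.98 in corn oil rats. The treated rats held both the highest and the lowest value. Between the groups the log2 fold change was 0.051 ± 0.12 (SE, n = 3 per group), a fold of 1.04 with a 95% interval of 0.839 to 1.28 and a limma adjusted p of 0.953. Without carbon tetrachloride replicate 2, the rat with the highest value, it was -0.043.

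Because red cell precursors also make Slc4a1 RNA, erythroid markers were read beside it. Of 12 erythroid markers, 7 were tested and 0 passed, 3 matched no probe, and Rhag and Gata1 were well above background on 0 arrays. Their summed signal, in multiples of the array's 75th percentile, ran from 354 to 723 in carbon tetrachloride rats and from 459 to 650 in corn oil rats. Of the 7 tested markers, 4 had their lowest value in carbon tetrachloride replicate 2, the rat in which Slc4a1 was highest. Of the others, 1 was lowest in carbon tetrachloride replicate 3, where Slc4a1 was lowest too, and 2 in corn oil replicate 3. The globin gene Hba-a1, 1 of the 4, was at 7.82 in carbon tetrachloride replicate 2. The other treated rats had 8.91 and 8.68 for Hba-a1 and the corn oil rats 8.20, 8.74 and 8.51, and the part of red cells in the Slc4a1 signal was not tested.

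Slc4a9, the blood-side transporter of type B cells, had a log2 signal of 2.37, 2.55 and 2.13 in carbon tetrachloride rats and 2.04, 2.37 and 2.24 in corn oil rats. The groups overlapped, with the highest value in treated replicate 2 and the lowest in corn oil replicate 1. The log2 fold change was 0.13 ± 0.14 (SE, n = 3 per group), a fold of 1.097 with a 95% interval of 0.865 to 1.39 and a limma adjusted p of 0.873.

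Slc26a4, whose product pendrin exchanges chloride for bicarbonate on the urinary side of the same type B cells, had a log2 signal of 5.12, 5.32 and 5.24 in carbon tetrachloride rats and 5.23, 5.43 and 5.37 in corn oil rats. Treated replicate 1 was the lowest and corn oil replicate 2 the highest, and the groups overlapped. The log2 fold change was -0.11 ± 0.09 (SE, n = 3 per group), a fold of 0.925 with a 95% interval of 0.794 to 1.08 and a limma adjusted p of 0.844. Both markers of type B cells therefore had intervals that included no change, with fitted values on opposite sides of 0.

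Foxi1, the transcription factor gene, varied most among rats of 1 group, with a within-group SD of 0.33 where the median over all transcripts was 0.14. Its log2 signal was 3.11, 3.13 and 2.46 in carbon tetrachloride rats and 3.10, 3.20 and 2.72 in corn oil rats. Replicate 3 of each group lay well below the other 2 rats of its group. The log2 fold change was -0.11 ± 0.23 (SE, n = 3 per group), a fold of 0.928 with a 95% interval of 0.632 to 1.36 and a limma adjusted p of 0.941.

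The other 2 probes of Foxi1 also had replicate 3 lowest in each group, and gave the opposite sign of the group difference. On the brightest probe corn oil replicate 1 lay near corn oil replicate 2, whereas on these 2 probes it lay well below it. The second had -1.34, -1.44 and -1.95 in carbon tetrachloride rats and -1.70, -1.41 and -1.95 in corn oil rats, and the third had -1.69, -1.76 and -2.18 in carbon tetrachloride rats and -2.05, -1.68 and -2.19 in corn oil rats. Their log2 fold changes were 0.11 and 0.097, so no direction is given for Foxi1. Of the other genes with more than 1 probe, the probes of Atp6v1b1, Atp6v1g3, Slc4a1, Slc4a9 and Slc26a4 gave 1 direction for each gene.

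**Figure D2:**
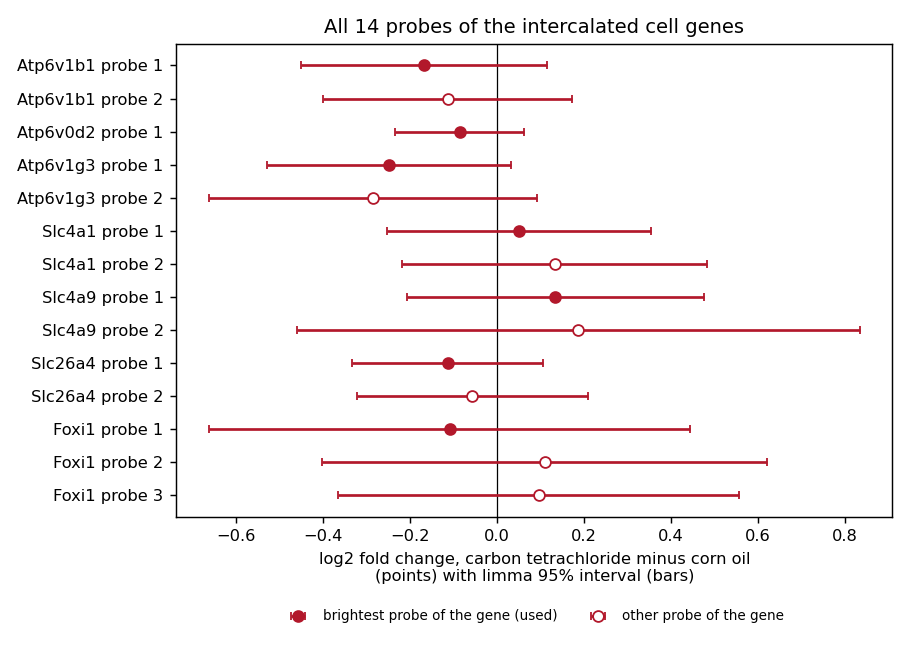
Log2 fold change (carbon tetrachloride minus corn oil) with its limma 95% interval for each of the 14 probes of the intercalated cell genes, from the fit of each probe alone. Filled points are the brightest probe of each gene, the intervals of all 14 probes include 0, and the 3 Foxi1 probes lie on both sides of 0.

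The array of carbon tetrachloride replicate 3 was the lowest for most of these genes and that of corn oil replicate 2 the highest. All 7 lay below their own mean over the 6 arrays on carbon tetrachloride replicate 3, where 49.0% of all transcripts did, and 4 of 7 had their lowest value there (Atp6v0d2, Atp6v1g3, Slc4a1 and Foxi1), where 19.7% of all transcripts did. On corn oil replicate 2, 6 of 7 lay above their own mean, where 54.1% of all transcripts lay below theirs. On that array 4 of 7 had their highest value, where 12.4% of all transcripts did. The median of the 7 genes relative to their own means was -0.20 on carbon tetrachloride replicate 3, 0.066 and 0.054 on carbon tetrachloride replicates 1 and 2, and 0.011, 0.091 and 0.061 on corn oil replicates 1 to 3. These arrays were picked out after the values were seen. Carbon tetrachloride replicate 3 lay alone on slide 2, whereas the other 5 arrays shared slide 1, so this rat and its slide cannot be told apart.

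On the same array several other lists lay mostly below their own means and others did not. On carbon tetrachloride replicate 3, 15 of 21 other intercalated cell genes lay below their own mean, with a median of -0.031, as did 8 of 10 principal cell markers, with a median of -0.026. All 5 markers of distal convoluted and connecting tubule lay below it too, with a median of -0.097, and 6 of 8 macrophage markers, with a median of -0.12. Of 17 widely expressed pump subunits and accessory proteins 2 lay below their own mean, with a median of 0.10, and 1 of 8 proximal tubule markers did, with a median of 0.074. Of thick ascending limb, medulla and erythroid markers, 2 of 6, 2 of 4 and 1 of 7 lay below their own mean. Their medians were 0.041, -0.048 and 0.21. The lists that lay mostly below their own means there each had a lower median on another array. It was -0.039 for other intercalated cell genes on corn oil replicate 3 and -0.15 for principal cell markers on corn oil replicate 1. For distal convoluted and connecting tubule it was -0.23 on carbon tetrachloride replicate 2, and for macrophage markers -0.26 on corn oil replicate 3. The part of tissue sampling in these values was not tested.

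Within slide 1, with 2 carbon tetrachloride and 3 corn oil arrays, the fitted changes of the pump subunits were -0.11 ± 0.13 (log2 fold change ± SE) for Atp6v1b1, -0.16 ± 0.11 for Atp6v1g3 and -0.072 ± 0.066 for Atp6v0d2. The exchangers had 0.17 ± 0.10 for Slc4a1, 0.24 ± 0.13 for Slc4a9 and -0.12 ± 0.11 for Slc26a4, and Foxi1 had 0.11 ± 0.16. The limma adjusted p ran from 0.745 to 0.895, so 0 of 7 passed there too. On slide 1 the carbon tetrachloride arrays lay in array row 2 and the corn oil arrays in row 1. Treatment and array row therefore cannot be told apart within slide 1. Without carbon tetrachloride replicate 3 the fitted values of Slc4a1 and Slc4a9 were over 1.5 times their size in all 6 arrays and that of Foxi1 turned sign, whereas those of the 3 pump subunits moved towards 0.

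**Figure D3:**
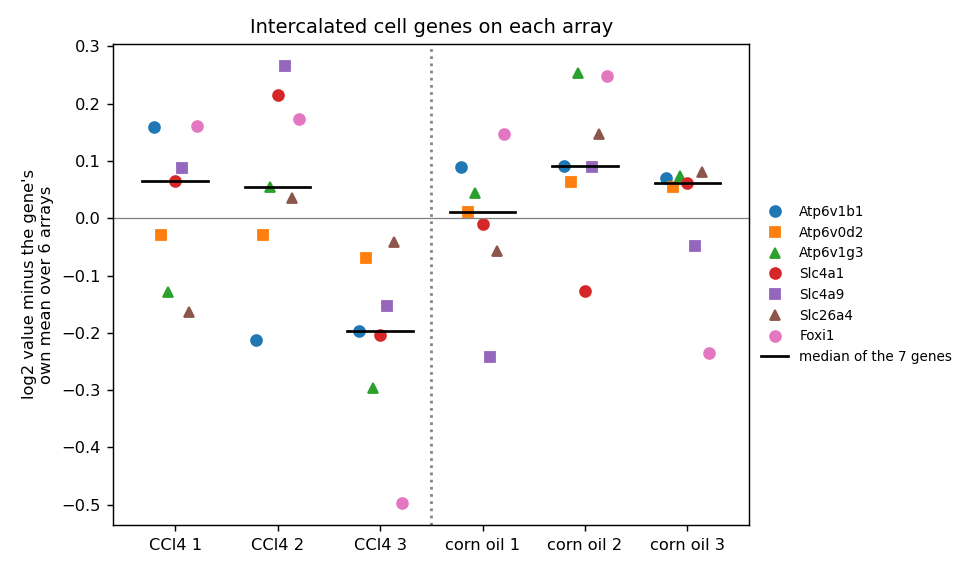
Log2 value of each of the 7 genes minus the gene's own mean over the 6 arrays, by array, with the median of the 7 genes as a black bar. On carbon tetrachloride (CCl4) replicate 3 all 7 genes lie below 0 and the median is -0.20, on corn oil replicate 2 it is 0.091, and on the other 5 arrays the genes lie on both sides of 0.

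The widely expressed pump subunits serve lysosomes and endosomes of every cell, and several of them join the cell-restricted subunits in the intercalated cell pump. Of 17 such genes all were tested and 0 passed, with 10 above and 7 below 0 and a median log2 fold change of 0.017. The partners of the restricted subunits were close to 0: Atp6v1b2, the common form of the B subunit, had 0.029 ± 0.075 (SE, n = 3 per group), Atp6v0d1, the common d subunit, 0.056 ± 0.069, and Atp6v1g1, the common G subunit, -0.030 ± 0.060. Atp6v0a1, the common counterpart of the unmeasured Atp6v0a4, had 2.80, 2.65 and 2.79 in carbon tetrachloride rats and 2.64, 2.60 and 2.61 in corn oil rats. Its log2 fold change of 0.13 ± 0.07 had a limma adjusted p of 0.824. The groups did not overlap for 4 of the 17 genes, where 12.8% of all transcripts did not: Atp6v0a1, Atp6v0a2 and Atp6v0b had higher treated values, as held for 7.54% of all, and Atp6v1e1 had lower ones. The fitted value farthest from 0, named after it was seen, was that of Atp6v1a, the catalytic subunit, at -0.35 ± 0.20. Each restricted subunit had a fitted value below that of its common partner, and the difference within each pair was not tested.

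Other genes of intercalated cells did not move as a group. Of 21 tested, 0 passed, 11 were above and 10 below 0, the median log2 fold change was 0.0079, and their summed signal ran from 241 to 268 in carbon tetrachloride rats and from 253 to 263 in corn oil rats, in multiples of the 75th percentile. Car2, the cytosolic carbonic anhydrase that supplies protons and bicarbonate, had 0.0079 ± 0.093 (log2 fold change ± SE, n = 3 per group) and Rhcg, an ammonia channel, 0.14 ± 0.08. The widely expressed anion exchanger Slc4a2 had 0.011 ± 0.11. Their 95% intervals all included 0.

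Aqp6, an aquaporin of intracellular vesicles in type A cells, was the 1 gene of the 21 in this list whose groups did not overlap, where 12.8% of all transcripts did not. Its log2 signal was -2.40, -2.66 and -2.73 in carbon tetrachloride rats and -2.81, -2.87 and -2.81 in corn oil rats, well above background on every array. Its fitted change was 0.23 ± 0.10 (log2 fold change ± SE, n = 3 per group), with a limma adjusted p of 0.798. Kit, a receptor kinase gene expressed in intercalated cells, had -0.089 ± 0.14 and Hepacam2, an adhesion gene of these cells, -0.16 ± 0.11. Insrr, an alkali-sensing receptor of type B cells, had -0.17 ± 0.14, and Oxgr1, a receptor for oxoglutarate in type B cells, had 0.26 ± 0.18, so genes of 1 cell type again lay on both sides of 0.

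**Figure D4:**
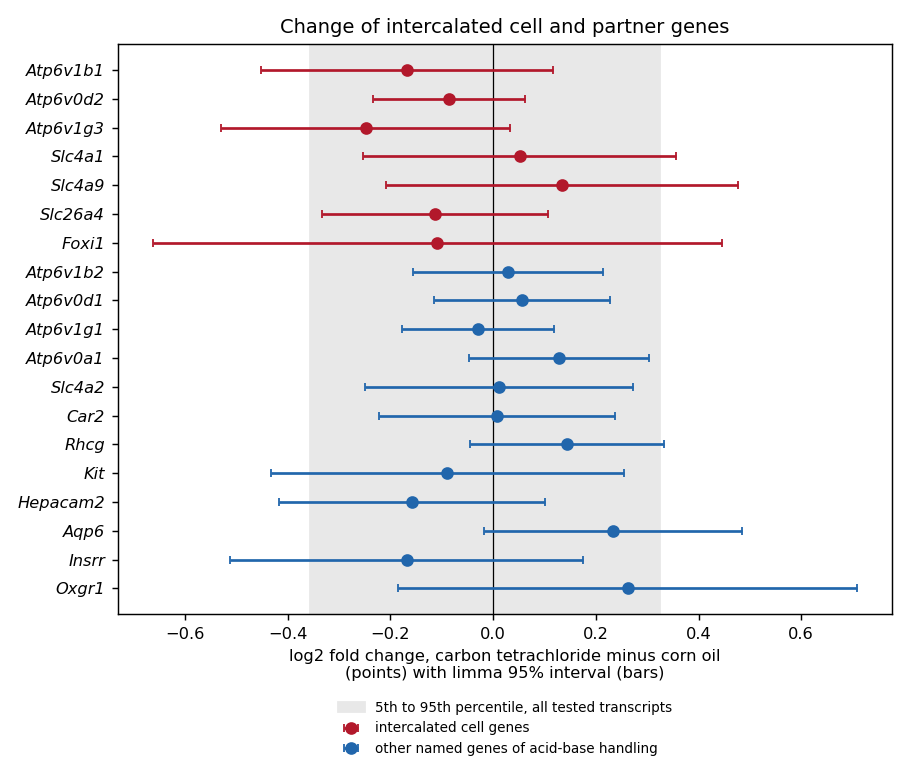
Log2 fold change (carbon tetrachloride minus corn oil) with its limma 95% interval for the 7 intercalated cell genes (red) and 12 other named genes (blue), over the 5th to 95th percentile of all tested transcripts (grey). The blue genes are common pump subunits, Slc4a2 and other genes of intercalated cells, and not all are genes of acid-base handling. All 19 intervals include 0, and the points run from -0.25 to 0.26.

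Markers of the labelled tissue were read too. Those of the proximal tubule, the main segment of cortex, were well above background on every array for all 8 genes. The medulla markers were also well above background on every array, so detection alone cannot tell cortex from medulla here. Markers of medulla, which dissection can carry along, gave summed signals of 28.1 to 50.7 in carbon tetrachloride rats and 15.4 to 55.9 in corn oil rats, mostly from Cryab, which ran from 4.72 to 5.62 in carbon tetrachloride rats and from 3.79 to 5.76 in corn oil rats on the log2 scale.

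Neighbouring cell types gave 0 calls as well. Of 11 principal cell markers 10 were tested, 5 above and 5 below 0 with a median log2 fold change of 0.0024, and their summed signal ran from 163 to 190 in carbon tetrachloride rats and from 163 to 201 in corn oil rats. The 5 tested markers of distal convoluted and connecting tubule all had values below 0, where 47.7% of all transcripts did. Their median was -0.075, with 0 past the threshold. Their summed signal of 134 to 152 in carbon tetrachloride rats did not overlap that of 155 to 181 in corn oil rats. Most of that sum was the kallikrein gene Klk1, named after its values were seen. Its fitted change was -0.27 ± 0.09 (log2, SE, n = 3 each), with a limma p of 0.025 before adjustment and 0.772 after it. For Klk1 every treated rat lay below every corn oil rat, as held for 5.27% of all transcripts. Of all transcripts, 6.3% had an unadjusted limma p under 0.05. Klk1 was the only gene of this list with either property. Of 7 in that list Trpm6 matched no probe and Pvalb was well above background on 0 arrays. Macrophage markers, read because macrophages can express Atp6v0d2, had a median of -0.041 over 8 tested genes, 0 of which passed, and Cd163 was well above background on at most 1 array. The part of neighbouring segments in the intercalated cell values was not tested.

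**Figure D5:**
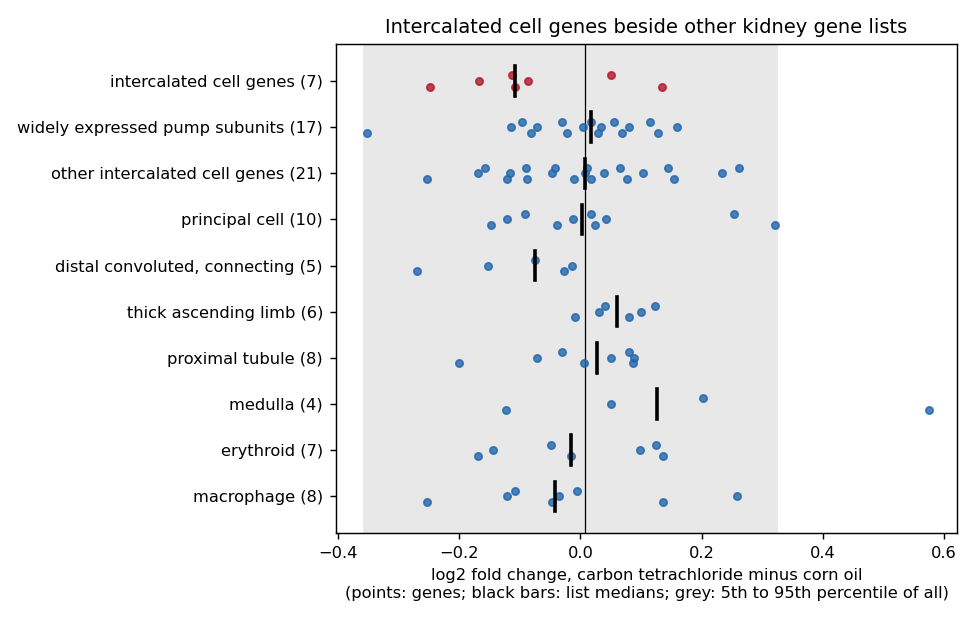
Log2 fold change (carbon tetrachloride minus corn oil) of each tested gene, for the 7 intercalated cell genes (red) and 9 other lists (blue), with list medians as black bars and the 5th to 95th percentile of all transcripts in grey. The median of the intercalated cell genes was -0.11 and those of the other lists ran from -0.075 to 0.13, and 0 genes shown passed the threshold.

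The genes whose pattern over the 6 arrays was most like the mean of the 7 were Zfp566, Gsta5, Tle1, Prkrip1 and Gimap8. Likeness was the root mean square difference on the log2 scale between values relative to each gene's own mean, which ran from 0.025 for Zfp566 to 0.040 for Gimap8, out of 6888 candidate genes. With 6 arrays and so many candidates, closeness of this kind is a description only.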

How the data were processed

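Cy3-labelled RNA of 6 renal cortices was hybridised to 1-colour Agilent arrays. The scanner files deposited by the authors hold linear spot intensity, extracted with Agilent Feature Extraction 10.7.1.1 per the file headers (10.7 per the submitters' processing notes), and the processed signal is background-subtracted. Each column of the value table that the authors deposited for the series is that intensity divided by 1 factor per array, between 1015 and 1092. The column medians were 0.116, 0.115 and 0.111 for carbon tetrachloride and 0.118, 0.111 and 0.114 for corn oil. The comparison leaves none of scale, centring and direction unknown, and 0 of its columns belong to other samples.

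The processed signal was divided by the 75th percentile of its array and taken to log2. The 1439 control spots and outlier-flagged spots, 0 to 25 an array, were left out, and 1 spot was saturated. Of 61537 probes, 42400 were well above background on every array of 1 group or both (68.5% to 72.1% on each array). Names came from matching the accession, without version, to RefSeq genes of GRCr8, used for names only (28206 probes, 45.8%). The brightest tested probe stood for a gene. Levels of different probes are not compared.

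The comparison used limma 3.58.1 under R 4.3.3 (two-sided, lmFit then eBayes) over all transcripts, with Benjamini-Hochberg adjustment and a threshold of 0.05. Replicates are biological per the design text. The code was tested on simulated data. Genes named beside the 7 measured members were the common partner subunits, Slc4a2 and 7 genes of intercalated cells taken for their role, and the 5 nearest in pattern, and a gene that the rule also takes is not reported here. Hba-a1, Cryab, Klk1, Atp6v1a and the pump subunits named as not overlapping were taken outside that rule, after their values were seen. The members and lists were chosen with earlier results of these data known. Carbon tetrachloride replicates 1 and 2 and all corn oil arrays shared slide 1 and scan 1, with carbon tetrachloride in array row 2 and corn oil in row 1, and carbon tetrachloride replicate 3 lay on slide 2 in scan 2. Alternatives were other scalings and background correction, the deposited table, other filters and probe summaries, trend and robust fitting, the slide or the replicate number as a block, slide 1 alone, and the fit without each array.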

Additional observations from a re-analysis of the deposited data

How the results depend on the processing

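The count of 0 intercalated cell genes past the threshold in limma was the same under all 18 alternatives, as were the counts of 0 for widely expressed pump subunits, other intercalated cell genes, principal cell markers and erythroid markers. At an unadjusted limma p under 0.05 between 0 and 1 of the 7 genes passed, where 6.3% of all transcripts did in the main fit. The 1 gene was Atp6v1g3 with normexp, where 1970 of 31193 transcripts passed, and with trend and robust fitting, where 1880 of 31193 did. It was Atp6v1g3 too with the replicate number as a block (1845 of 31193) and without carbon tetrachloride replicate 2 (1919 of 31590). Without carbon tetrachloride replicate 1 it was Atp6v1b1 (1809 of 31435). The median log2 fold change of the 7 genes ran from -0.13 to -0.068. Their split, 2 above and 5 below 0 in the main fit, was 1 above and 6 below without carbon tetrachloride replicate 2. It was 3 above and 4 below with the mean of a gene's probes, with the slide as a block, on slide 1 alone and without carbon tetrachloride replicate 3. Foxi1, at -0.11, was at 0.033 with the mean of its probes, which follows from its 2 other probes, and at 0.11 with the slide as a block, on slide 1 alone and without carbon tetrachloride replicate 3, which use the same 5 arrays for the comparison. Slc4a1, at 0.051, was at -0.043 without carbon tetrachloride replicate 2. Without single arrays, Atp6v1b1 ran from -0.29 to -0.10, Atp6v1g3 from -0.34 to -0.16, Slc4a1 from -0.043 to 0.17, Slc4a9 from 0.035 to 0.24, Slc26a4 from -0.17 to -0.059 and Foxi1 from -0.25 to 0.11, with an adjusted p of at least 0.716 for all 7 genes under any alternative. The 1 transcript past the threshold over the whole array, which is no intercalated cell gene, became 0 with normexp, without a filter, with the filter on all 6 arrays, with trend and robust fitting, with the slide as a block and on slide 1 alone, and leaving out 1 array in turn gave 0 to 4. The cause was not tested. With the replicate number as a block the count past the threshold was 0 and the median of the 7 genes was -0.11. At an unadjusted limma p under 0.05 the count ran from 1542 of 31329 transcripts, without corn oil replicate 1, to 2350 of 31308, without corn oil replicate 3. With each probe alone it was 2712 of 42400 probes. The numbers are not known to pair the rats, and same-numbered rats had correlations of -0.023, -0.097 and -0.079 between their deviations from the group means. The number of arrays, 3 a group, limits the precision of every value.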
